A study of Homo sapiens with 6 samples.

Results

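The plasminogen activation system is described here through 9 genes: the activators PLAU and PLAT, the zymogen PLG, the cell-surface receptors PLAUR and ANXA2, the serpins SERPINE2 and SERPINB2, and the Kunitz inhibitors TFPI and TFPI2. A probe set (the group of oligonucleotides that reports 1 transcript on an Affymetrix array) counted for a gene where the platform annotation gave it that gene symbol and no other. This gave 22 probe sets for 8 of the 9 genes, out of 19775 genes measured; SERPINB2 was not analysed here. The samples were MDA-MB-231 cells, an established line of human breast cancer cells. Of the 6 arrays, 3 came from cells transfected with an expression plasmid for HS3ST2, a heparan sulfate 3-O-sulfotransferase, and 3 from cells given a control vector, with 1 array for each replicate. The time between transfection and harvest, any selection or cloning, and whether each replicate was its own transfection are not stated in the labels, so the p-values measure the spread between these arrays.

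Plasminogen is a circulating zymogen that urokinase (PLAU) and tissue plasminogen activator (PLAT) cleave to plasmin, a protease that dissolves fibrin and degrades matrix proteins. Urokinase acts while bound to its receptor PLAUR at the cell surface, and annexin A2 (ANXA2) with its partner S100A10 holds plasminogen and tissue plasminogen activator there. Serpins trap the activators, Kunitz inhibitors block serine proteases of the coagulation and plasmin cascades, and several of these inhibitors, among them SERPINE2 and TFPI, bind heparin or heparan sulfate. In breast cancer, high urokinase levels are known as a marker of poor outcome.

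Every value below is a log2 expression value relative to the median of its probe set over the 6 arrays, which removes the level itself, and no gene's level can be set against another's. A difference is HS3ST2-labelled minus control on this log2 scale, with the standard error (SE) of limma, which shares the estimate of spread over all genes, and n = 3 arrays per group. A call means an adjusted p (Benjamini-Hochberg, over all genes or over all probe sets) under 0.05. The single HS3ST2 probe set had values of 0.16, 0.04 and -0.04 in the HS3ST2-labelled arrays and -0.22, 0.17 and -0.11 in the control arrays (limma adjusted p 0.523), and whether it can detect the plasmid's transcript is not given, so directions rest on the labels. The median of 6 ribosomal RNA control probe sets was 0.02, 0.16 and 0.74 in HS3ST2-labelled replicates 1, 2 and 3, against -0.20, -0.06 and -0.29 in the control replicates. Centring removed the levels that would show whether markers of the line, or of other cells, are present. Of 14 fibroblast, leukocyte, luminal and endothelial markers, VWF was called higher and KDR lower, and the other 12 were not called. Of 7 genes known to be high or low in MDA-MB-231 cells, CD44 (-0.59) and VIM (-0.20) were called lower, KRT18 (0.26) higher and 4 not. Over all genes, 11.5% were called higher and 13.0% lower.

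Promoters of the 5 called members whose start sites the table holds are shown first, because the members moved in both directions and their promoters can be read side by side. Each sequence is the 250 bases before an annotated start in RefSeq (GRCh38.p14), 5′ to 3′ on the gene's strand, with matches to the motifs below in capitals. The PLAU window is chr10:73910882-73911131 (plus strand), the PLAUR window chr19:43670170-43670419 (minus), the TFPI2 window chr7:93890754-93891003 (minus), the SERPINE2 window chr2:224038641-224038890 (minus) and the ANXA2 window chr15:60397987-60398236 (minus).
PLAU: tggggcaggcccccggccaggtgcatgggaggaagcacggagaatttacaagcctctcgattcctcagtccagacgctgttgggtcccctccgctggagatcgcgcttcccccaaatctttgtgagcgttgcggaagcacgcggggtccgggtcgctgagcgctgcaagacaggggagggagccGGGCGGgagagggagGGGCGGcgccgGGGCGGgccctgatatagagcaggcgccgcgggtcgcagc
PLAUR: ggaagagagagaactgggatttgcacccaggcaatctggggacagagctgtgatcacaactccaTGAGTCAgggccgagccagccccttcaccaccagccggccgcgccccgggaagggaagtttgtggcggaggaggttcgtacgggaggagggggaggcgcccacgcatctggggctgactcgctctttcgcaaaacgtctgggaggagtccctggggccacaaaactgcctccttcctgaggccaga
TFPI2: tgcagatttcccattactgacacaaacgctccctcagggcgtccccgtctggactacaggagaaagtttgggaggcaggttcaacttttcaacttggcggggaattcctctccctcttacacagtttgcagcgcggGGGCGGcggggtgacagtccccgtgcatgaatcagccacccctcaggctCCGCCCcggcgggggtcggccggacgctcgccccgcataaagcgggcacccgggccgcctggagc
SERPINE2: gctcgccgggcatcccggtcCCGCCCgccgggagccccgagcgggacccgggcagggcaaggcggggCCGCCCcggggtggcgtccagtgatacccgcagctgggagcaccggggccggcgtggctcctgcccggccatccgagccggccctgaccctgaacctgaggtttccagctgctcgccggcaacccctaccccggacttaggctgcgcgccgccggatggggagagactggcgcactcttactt
ANXA2: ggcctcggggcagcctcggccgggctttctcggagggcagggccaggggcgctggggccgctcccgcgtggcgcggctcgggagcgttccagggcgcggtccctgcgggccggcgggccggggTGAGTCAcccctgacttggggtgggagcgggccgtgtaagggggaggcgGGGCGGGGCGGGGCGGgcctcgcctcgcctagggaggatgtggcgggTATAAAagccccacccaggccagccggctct

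The motifs searched were AP-1 (TGAGTCA), Sp1 (GGGCGG), NF-kB (GGGA, any base, then TTTCC) and CRE (TGACGTCA) on both strands, and the TATA box (TATAAA) on the gene's strand. The AP-1 letters stood at 186 to 180 bases before the PLAUR start and at 127 to 121 bases before the ANXA2 start, and 4.2% of 35114 promoter windows of this length hold them. The PLAU window held the Sp1 letters 3 times, the TFPI2 and SERPINE2 windows each 2 times, and the ANXA2 window 3 times in overlapping copies, a motif present in 42.6% of windows. The ANXA2 window also held the TATA letters (6.8% of windows), and the NF-kB and CRE letters were in none of the 5 windows. AP-1 letters were thus found in 1 window of a gene called lower and in 1 of a gene called higher. A match is a description of the letters and shows no binding. Bases farther from the start and letters that differ from these motifs were not searched. A window without a match therefore does not show that a factor has no site at the gene. RefSeq lists a second start for PLAU and for SERPINE2, whose windows are not shown. The Sp1 letters stood 0 times in that PLAU window and 1 time in that SERPINE2 window.

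In the HS3ST2-labelled arrays PLAT, SERPINE2 and ANXA2 rose, and PLAU, PLAUR and TFPI2 fell, while PLG and TFPI were not called. Thus 3 of 8 measured members rose, where 11.5% of all genes rose, and 3 fell, where 13.0% of all genes fell. The members were chosen with earlier results of these data known, so the shares in this paragraph describe them and test nothing. The groups did not overlap for 7 of the 8 members, against 40.4% of all genes (4 higher, against 19.5%, and 3 lower, against 20.9%). The median size of the difference, regardless of sign, was 0.35 over the members and 0.11 over all genes. On single probe sets, 12 of 22 were called, against 16.9% of all probe sets, with 5 higher (7.90% of all probe sets) and 7 lower (8.98%). With any 1 array left out, 7 to 9 of 22 were called, against 11.5% to 12.9% of all probe sets. The lowest count, 7, was without HS3ST2-labelled replicate 3, where 11.8% of all probe sets were called. The groups did not overlap on 18 of 22 probe sets, against 34.1% of all, with 9 higher (16.6% of all) and 9 lower (17.4%). The part in these results of the ribosomal RNA signal given above was not tested. In extracts of many cells, fewer cells expressing a gene and less RNA per cell cannot be told apart.

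**Figure D1:**
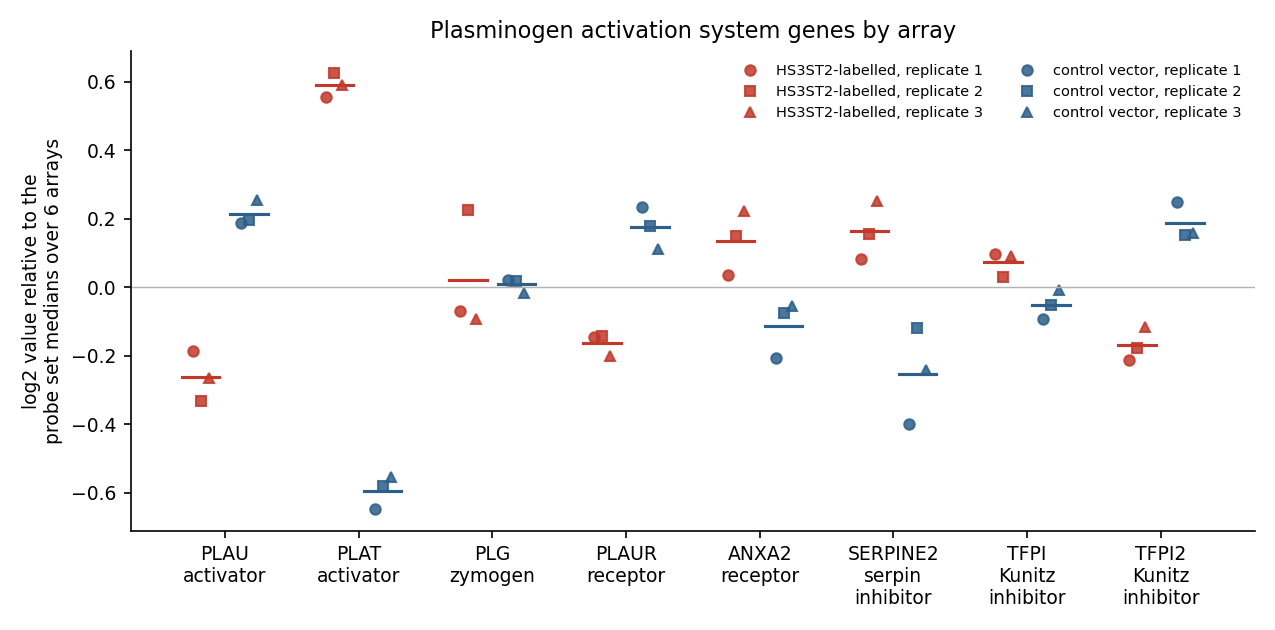
Each point is 1 array's log2 value of a member gene, averaged over its probe sets and relative to the medians over the 6 arrays, with HS3ST2-labelled arrays in red on the left, control vector arrays in blue on the right, and a bar at the mean of 3 arrays. PLAT separates the groups most widely, PLG overlaps, and PLAU, PLAUR and TFPI2 lie lower in the HS3ST2-labelled arrays.

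The plasminogen activators moved in opposite directions. PLAT, which makes tissue plasminogen activator, had values of 0.55, 0.63 and 0.59 in the HS3ST2-labelled arrays and -0.65, -0.58 and -0.55 in the control arrays. The groups stood far apart relative to their spread, with an SD of 0.04 in HS3ST2-labelled and 0.05 in control arrays. PLAT rose by 1.18 ± 0.05 (SE; 95% interval 1.06 to 1.31), a 2.27-fold difference, with a limma adjusted p of 1.07e-05. Only 0.582% of all genes differed by as much in either direction. PLAT rests on 1 probe set, so no second measurement of the gene was made.

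PLAU, which encodes urokinase, had values of -0.19, -0.33 and -0.26 in the HS3ST2-labelled arrays and 0.19, 0.20 and 0.25 in the control arrays. All 3 HS3ST2-labelled arrays were below all 3 control arrays. It fell by 0.47 on the log2 scale (SE 0.06, 95% interval -0.61 to -0.34), to 0.72 of the control, with a limma adjusted p of 7.8e-04. Its probe sets 205479_s_at (-0.43) and 211668_s_at (-0.52) were both called. Within each array the value of PLAT minus that of PLAU was 0.74, 0.96 and 0.85 in the HS3ST2-labelled arrays and -0.83, -0.78 and -0.81 in the control arrays. This shift between the activators was 1.66 ± 0.07 (SE, 95% interval 1.51 to 1.81, limma adjusted p 6.67e-06, adjusted over 19778 genes and pairs). It restates the calls of PLAT and PLAU in opposite directions on the same arrays and adds no separate evidence.

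The zymogen PLG, made chiefly by the liver, did not separate the groups. Its values were -0.07, 0.22 and -0.09 in the HS3ST2-labelled arrays and 0.02, 0.02 and -0.02 in the control arrays. HS3ST2-labelled replicate 2 stood above the other 5 arrays. The difference was 0.01 ± 0.09 (SE; 95% interval -0.19 to 0.21; limma adjusted p 0.939), and none of its 3 probe sets was called. Since levels were not kept, whether PLG is expressed in these cells cannot be read from the values.

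The receptors PLAUR and ANXA2 were called in opposite directions, with 1 of 4 ANXA2 probe sets called, and were not compared with each other. PLAUR, the membrane-anchored urokinase receptor, had values of -0.14, -0.14 and -0.20 in the HS3ST2-labelled arrays and 0.24, 0.18 and 0.11 in the control arrays. The groups did not overlap. It fell by 0.34 on the log2 scale (SE 0.06, 95% interval -0.47 to -0.21; limma adjusted p 0.00317), and its 3 probe sets, at -0.28, -0.33 and -0.41, were each called. The gene was called whichever array was left out. The probe set 210845_s_at was called in 1 of 6 such cases (limma adjusted p 0.0383 to 0.0943), without HS3ST2-labelled replicate 1, and 211924_s_at in all but that without HS3ST2-labelled replicate 3 (adjusted p 0.0557). PLAU minus PLAUR was -0.04, -0.19 and -0.06 in the HS3ST2-labelled arrays and -0.05, 0.02 and 0.14 in the control arrays. The falls of urokinase and of its receptor could not be told apart in size (-0.14 ± 0.07, 95% interval -0.30 to 0.02, limma adjusted p 0.21).

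ANXA2 had gene values of 0.04, 0.15 and 0.22 in the HS3ST2-labelled arrays and -0.21, -0.08 and -0.05 in the control arrays. It was called higher (0.25 ± 0.07, limma adjusted p 0.0345), but 1 of its 4 probe sets carried most of the difference. That probe set, 1568126_at, had values of 0.08, 0.42 and 0.76 in the HS3ST2-labelled arrays and -0.57, -0.23 and -0.08 in the control arrays. Its SD was 0.34 in HS3ST2-labelled and 0.25 in control arrays, and its highest array was also the one with the highest ribosomal RNA signal (0.74); the part of that signal was not tested. The other 3 probe sets, all with the _x_at ending that marks probes shared with similar sequences, were at 0.08 to 0.12 and none was called. Leaving out an array removed the gene's call in 5 of 6 cases (0.20 to 0.30, limma adjusted p 0.0291 to 0.108); it was kept only without HS3ST2-labelled replicate 1. The probe set itself was called in 2 of 6 (0.54 to 0.88, adjusted p 0.0194 to 0.109). With the median of its probe sets ANXA2 stood at 0.10 (adjusted p 0.17).

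ANXA2 has processed pseudogenes of near-identical sequence, which could share signal with it. Their probe sets were at 0.31 for ANXA2P1 (limma adjusted p 0.0722), 0.12 for ANXA2P2 (0.26) and 0.31 for ANXA2P3 (0.0692), and none was called. The probe set annotated to both SNU13 and ANXA2, 201077_s_at, lies outside the gene's average and was at -0.16 (adjusted p 0.118). Probe sets tied to ANXA2 thus ran from -0.16 to 0.71, and the call of the gene rests on 1568126_at.

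**Figure D2:**
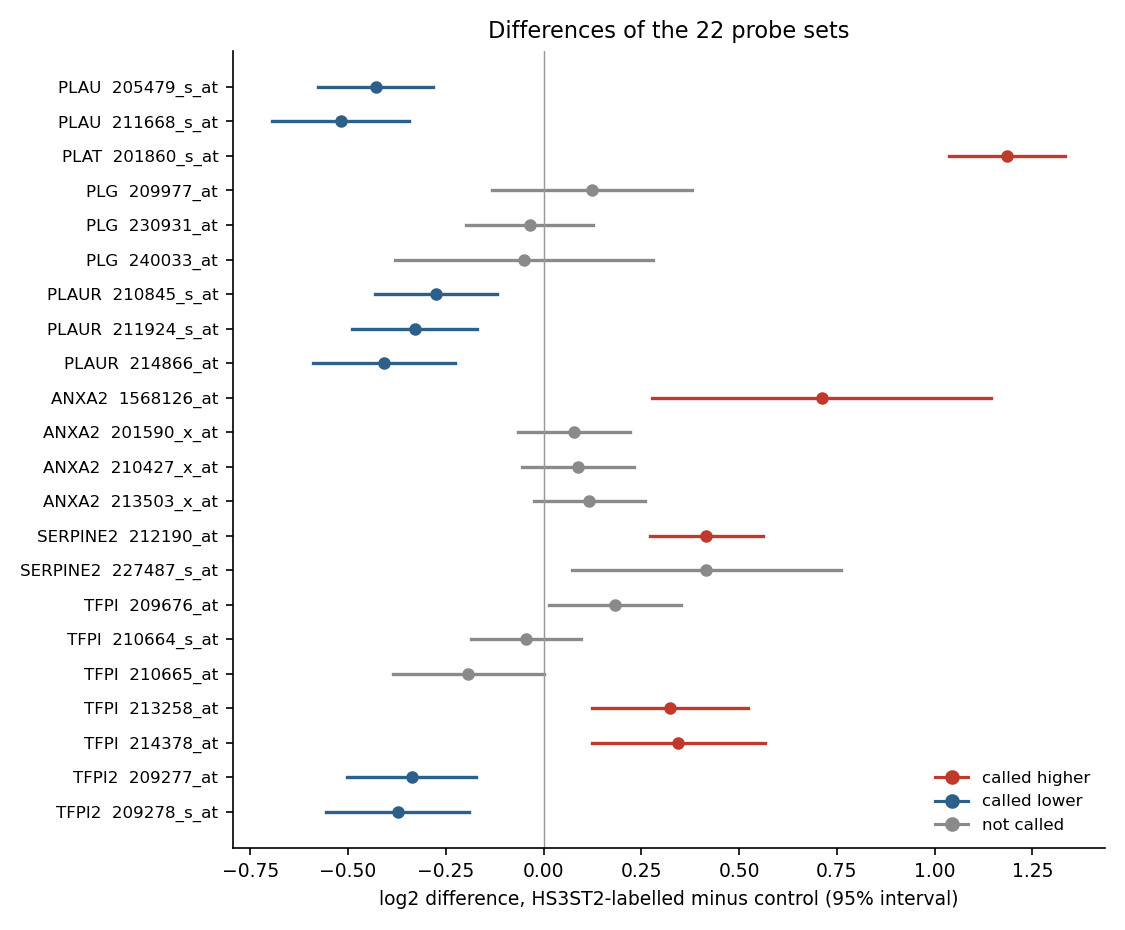
The log2 difference, HS3ST2-labelled minus control, of each of the 22 member probe sets with its 95% interval, 3 arrays per group, in red or blue where called higher or lower and in grey where not called. The probe sets of PLAU, PLAUR and TFPI2 lie together below 0, while those of ANXA2 and TFPI are spread.

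Among the inhibitors, SERPINE2 and TFPI2 moved in opposite directions. SERPINE2, also called protease nexin-1, is a serpin that inhibits thrombin, urokinase, tissue plasminogen activator and plasmin and is accelerated by heparin. Its values were 0.08, 0.16 and 0.25 in the HS3ST2-labelled arrays and -0.40, -0.12 and -0.24 in the control arrays. No control array reached an HS3ST2-labelled one. It rose by 0.42 ± 0.08 (SE; 95% interval 0.23 to 0.61; limma adjusted p 0.00768). Both probe sets gave 0.42, but their spread differed: 212190_at was called with values of 0.18, 0.18 and 0.22 in the HS3ST2-labelled arrays against -0.23, -0.25 and -0.18 in the control arrays. The other, 227487_s_at, had -0.02, 0.13 and 0.28 in the HS3ST2-labelled arrays and -0.57, 0.02 and -0.30 in the control arrays, so its groups overlapped and it was not called (adjusted p 0.103), though it was without control replicate 2 (0.57, adjusted p 0.032).

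TFPI2 encodes a Kunitz inhibitor of plasmin and other serine proteases that is deposited in the matrix. Its values were -0.21, -0.18 and -0.12 in the HS3ST2-labelled arrays and 0.25, 0.15 and 0.16 in the control arrays. All HS3ST2-labelled arrays lay below the control arrays. It fell by 0.35 on the log2 scale (SE 0.06, 95% interval -0.48 to -0.23; limma adjusted p 0.0027), and both of its probe sets were called (-0.34 and -0.37). Left-out arrays kept the gene's call in 6 of 6 cases, that of 209277_at in 4 and that of 209278_s_at in 5. The lost calls were without HS3ST2-labelled replicate 1 or control replicate 2 for 209277_at and without HS3ST2-labelled replicate 2 for 209278_s_at (adjusted p up to 0.0595).

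TFPI, the Kunitz inhibitor of factor Xa and of the complex of tissue factor with factor VIIa, had gene values of 0.10, 0.03 and 0.09 in the HS3ST2-labelled arrays and -0.09, -0.05 and -0.01 in the control arrays. The groups did not overlap, but the gene was not called (0.12 ± 0.05, limma adjusted p 0.134). Its 5 probe sets disagreed. Called higher were 213258_at (0.32) and 214378_at (0.35), and 209676_at was at 0.18 with no call. With any 1 array left out 213258_at was not called (limma adjusted p 0.0518 to 0.109), and 214378_at was called in 1 of 6 such cases, without HS3ST2-labelled replicate 2. The remaining 210664_s_at (-0.04) and 210665_at (-0.19), which the annotation ties to the same source record, were not called, except 210665_at without control replicate 1 (-0.27, adjusted p 0.0476). In the average of the first 3 the values were 0.17, 0.09 and 0.17 in the HS3ST2-labelled arrays and -0.16, -0.17 and -0.10 in the control arrays, whereas the average of the last pair gave -0.0046, -0.06 and -0.03 in the HS3ST2-labelled arrays and 0.0046, 0.13 and 0.13 in the control arrays. This grouping was made after the values were seen and was not tested. TFPI is known to be spliced into an alpha and a beta form with different 3′ ends, and the annotation does not say which form each probe set reports. With the probe set of largest SD alone the gene was called (0.35, adjusted p 0.0364).

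The Kunitz inhibitors differed from each other. TFPI minus TFPI2 was 0.31, 0.21 and 0.21 in the HS3ST2-labelled arrays and -0.34, -0.20 and -0.17 in the control arrays. The shift was 0.48 ± 0.07 (SE; 95% interval 0.33 to 0.63; limma adjusted p 0.00136). It joins the called fall of TFPI2 (-0.35) to a TFPI difference (0.12) that was not called and whose probe sets disagreed. Of the 3 pairs compared, this one and that of the activators were called. Pairs use the same values as the single genes and are no separate evidence.

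**Figure D3:**
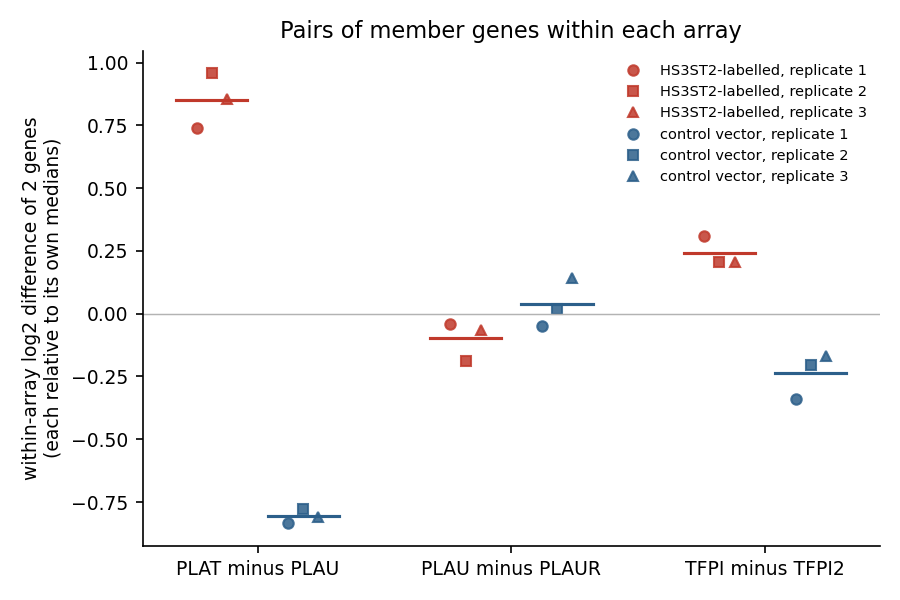
Each point is the log2 value of the first gene minus that of the second within 1 array, HS3ST2-labelled arrays in red on the left and control vector arrays in blue on the right, with a bar at the mean of 3 arrays. The activator pair and the Kunitz pair separate the groups, and PLAU minus PLAUR overlaps.

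The genes nearest to each called member, by Euclidean distance over the 6 arrays, were taken as a description of likeness. For PLAT these were TMEM156 (distance 0.0914), IGFBP3 (0.106) and PROS1 (0.109), and for PLAU they were MRPS2 (0.0538), PEA15 (0.0565) and FKBP4 (0.0706). PLAUR had THUMPD2 (0.0226), PEX2 (0.039) and IER3 (0.0575), and TFPI2 had REL (0.0432), GLIS3 (0.0505) and UHRF1 (0.0511). SERPINE2 had NTN4 (0.099), PGM5-AS1 (0.112) and THAP12 (0.116) and ANXA2 had FZD3 (0.0417), SARAF (0.0447) and OR11A1 (0.0652). The 6 arrays form 2 groups, so genes with differences of like size and sign lie near each other by this measure.

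The wider system was read through 7 lists that hold 103 genes, of which 96 had a probe set of their own. In all, 36 of the 96 were called, 21 higher and 15 lower (37.5%, against 24.5% of all genes). When the probe sets marked _x_at or _s_at were left out, 20 of 79 were called (25.3%), against 19.5% of all genes under that choice. The lists were drawn up with earlier results of these data known, so these shares describe the lists and test nothing. Counts for each list below stand beside 11.5% of all genes higher and 13.0% lower. With 1 array left out, 19.1% to 20.3% of all genes were called. The median difference was 0.16 for plasminogen binding partners, 0.12 for other inhibitors, 0.05 for activating proteases, 0.01 for urokinase receptor partners and for plasmin substrates, -0.02 for the tissue factor pathway and -0.07 for transcription factors, beside 0.01 for all genes. The 7 other list genes had no probe set with a single symbol and were not analysed here.

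Of 7 partners that bind plasminogen, 1 was called higher and 1 lower. S100A10, the partner of annexin A2 (0.16, adjusted p 0.205), the plasminogen receptor PLGRKT (0.18, adjusted p 0.0608) and ENO1, a glycolytic enzyme that also binds plasminogen at the cell surface (-0.01, adjusted p 0.944), were not called; these 3 were named after their values were seen. H2BC21, a histone H2B gene, fell by 0.74 on the log2 scale (SE 0.08, limma adjusted p 5.45e-04). HMGB1, a chromatin protein that can be secreted, was called at 0.17 ± 0.05 (adjusted p 0.0451) with 5 probe sets from 0.0039 to 0.37, and not when any 1 array was left out (adjusted p 0.0724 to 0.13).

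Of 12 other inhibitors, 4 rose and 1 fell, against 2 and 1 without HS3ST2-labelled replicate 2 or control replicate 2. SERPINI1, neuroserpin, an inhibitor of tissue plasminogen activator, had values of 0.22, 0.32 and 0.32 in the HS3ST2-labelled arrays and -0.32, -0.22 and -0.33 in the control arrays, and rose by 0.58 ± 0.06 (limma adjusted p 3.17e-04). It thus moved in the same direction as PLAT, its target. SERPING1, the C1 inhibitor, rose by 0.35 ± 0.08, and SPINT2, a Kunitz inhibitor of the activators of hepatocyte growth factor, by 0.28 ± 0.07 with a call lost without HS3ST2-labelled replicate 1 or 2 or control replicate 2 (adjusted p 0.0652 to 0.0797). SERPIND1, heparin cofactor II, which inhibits thrombin when bound to glycosaminoglycans, fell by 0.91 on the log2 scale (SE 0.05, adjusted p 2.47e-05). SERPINF2, the main plasmin inhibitor of plasma, was at 0.45 (adjusted p 0.0541) and was not called; it was chosen after its value was seen.

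Urokinase receptor partners and clearance receptors were split, with 4 of 19 higher and 4 lower. This split rests on probe sets marked _x_at or _s_at, since without them 4 of 17 were higher and 0 lower. VLDLR, among those called lower, has only such a probe set and was not measured under that choice. The secreted PLAUR ligand SRPX2 rose by 0.55 ± 0.05, although its 2 probe sets were at -0.02 and 1.12, and the vitronectin receptor chain ITGAV rose by 0.37 ± 0.05. VLDLR, an endocytic receptor for complexes of urokinase with its inhibitors, fell by 0.54 on the log2 scale (SE 0.06), and IGF2R, which binds PLAUR and plasminogen, fell by 0.42 (SE 0.06) with probe sets from -0.73 to -0.04. IGF2R was not called on its probe set outside the _x_at and _s_at classes (-0.04, adjusted p 0.732). In the tissue factor pathway 2 of 11 rose and 3 fell. F3, tissue factor, which TFPI restrains, had values of 0.25, 0.25 and 0.21 in the HS3ST2-labelled arrays and -0.30, -0.21 and -0.21 in the control arrays, and rose by 0.47 ± 0.05 (limma adjusted p 5.1e-04). PROS1, protein S, a cofactor of TFPI and of activated protein C, rose by 1.13 ± 0.06 (adjusted p 2e-05). The endothelial-type anticoagulant receptors THBD and PROCR fell by 0.52 and 0.41 on the log2 scale (SE 0.06 and 0.05), with all 3 THBD probe sets called.

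Among 16 plasmin substrates 7 rose and none fell, where 11.5% of all genes rose and 13.0% fell. The count was 7 higher and 1 lower without HS3ST2-labelled replicate 3 (19.2% of all genes called). It was 7 higher and 2 lower with the probe set of largest SD for each gene (26.3% of all genes). When the _x_at and _s_at probe sets were dropped, it was 4 higher and 0 lower of 12 (19.5% of all genes), and FGG was not measured. The largest differences in this list were in FGG, the fibrinogen gamma chain (2.66 ± 0.11), MMP13 (2.14 ± 0.11) and MMP1 (1.61 ± 0.07), collagenases made as zymogens, and VEGFC, a lymphatic growth factor (0.73 ± 0.06), all with a limma adjusted p of 1.41e-04 or less. Of the other fibrinogen chain genes, FGB was called higher (0.71, adjusted p 4.25e-04) and FGA was not called (-0.13, adjusted p 0.361). The 9 genes not called also included TGFB1 at -0.19 (adjusted p 0.0544), MMP3 at -0.07 (adjusted p 0.599) and MMP9 at 0.02 (adjusted p 0.938). FGB, FGA, TGFB1, MMP3 and MMP9 were chosen after their values were seen. Of 12 genes in the list of activating proteases, 1 rose and 2 fell. When the _x_at and _s_at probe sets were dropped, 1 of 10 rose and 0 fell, and CTSL was not measured. TMPRSS3, a membrane serine protease, rose by 2.64 ± 0.08, and whether it acts on urokinase was not tested. ST14, matriptase, which cleaves pro-urokinase, fell by 0.44 on the log2 scale (SE 0.06) with probe sets from -0.95 to 0.15, and was not called once those marked _x_at or _s_at were dropped (-0.19, adjusted p 0.111). CTSL, cathepsin L, fell by 0.30 (SE 0.06, adjusted p 0.00694).

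Transcription factors known to act on the PLAU and PLAUR promoters were measured for 19 genes, with 2 called higher and 4 lower. With 1 array left out 4 to 5 were called, and with probe sets of the _x_at and _s_at kinds dropped 0 of 15 were higher and 3 lower. KLF4 and EGR1, the 2 called higher, have only such probe sets and were not measured under that choice. FOSL2, an AP-1 subunit, had values of -0.24, -0.13 and -0.24 in the HS3ST2-labelled arrays and 0.27, 0.15 and 0.22 in the control arrays, and fell by 0.42 on the log2 scale (SE 0.06, limma adjusted p 0.00153), with 5 probe sets from -0.88 to -0.20, of which 3 were called. REL, an NF-kB subunit, fell by 0.35 (SE 0.06, adjusted p 0.00437), with 5 probe sets from -0.58 to 0.03. KLF4 rose by 0.38 ± 0.06 (adjusted p 0.00178), and EGR1 by 0.39 ± 0.09 (adjusted p 0.0156), with EGR1 not called without HS3ST2-labelled replicate 2 or 3 or control replicate 1 (adjusted p 0.0505 to 0.0547). The AP-1 subunits JUN (-0.09, adjusted p 0.403) and FOSL1 (0.04, adjusted p 0.7) and the NF-kB subunit RELA (-0.04, adjusted p 0.711), chosen after their values were seen, were not called.

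**Figure D4:**
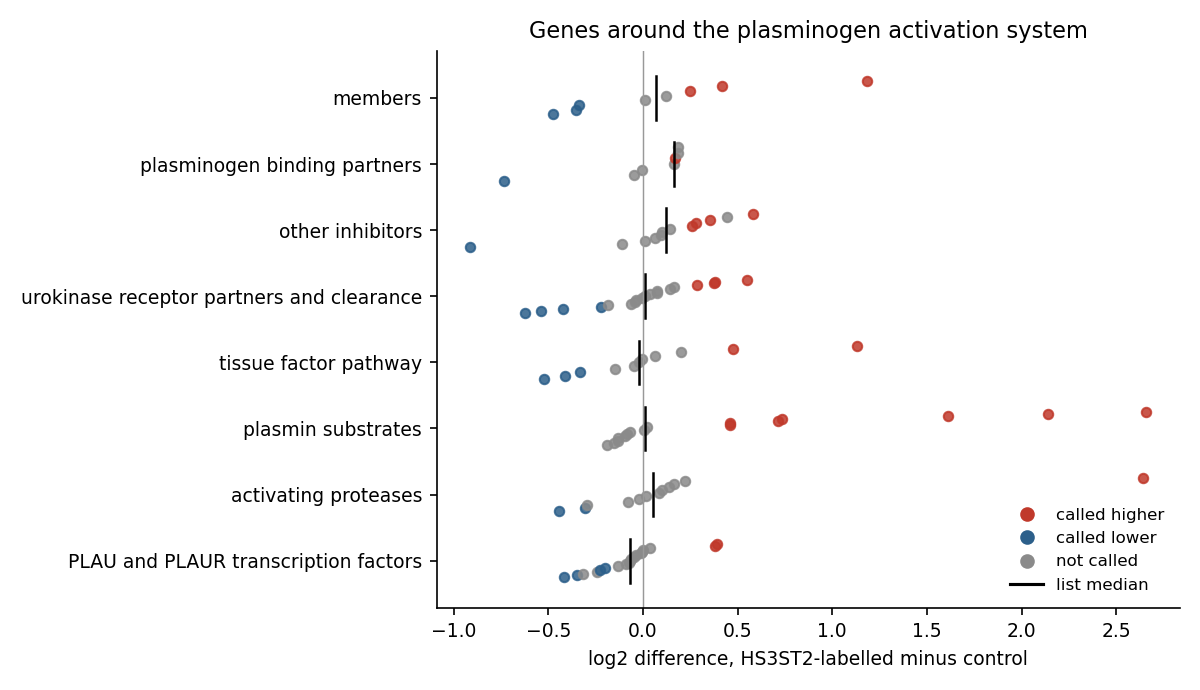
Each point is the log2 difference, HS3ST2-labelled minus control, of 1 gene, for the members and 7 lists of related genes, in red or blue where called higher or lower and in grey where not called, with a black line at the list's median. The members spread on both sides of 0, and the called plasmin substrates, with each gene the mean of its probe sets, lie above it.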

How the data were processed

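Gene expression was measured on 6 Affymetrix arrays, with biotinylated cRNA made from 3.6 µg of total RNA per the labels' protocols. The deposited log2 values were made by the authors with RMA, per the submitters' processing notes, and then centred, since the median of each of the 54675 probe sets over the arrays is 0 within 4.8e-07. The software and reason for the centring are not stated in the sources, the log base was taken as 2 as RMA writes it, and arrays give no counts, so the number of arrays limits the precision. Setting aside 62 control probe sets left 54613, of which 41091 had 1 gene symbol, 1801 several and 11721 none. Probe sets of a gene were averaged into 19775 genes, with symbols updated by gene number for 41037 probe sets.

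Groups were compared with limma 3.58.1 in R 4.3.3 (lmFit and eBayes, no covariate), checked on simulated data. Differences between members were added to the fit over all genes and adjusted with it, where adjustment over the pairs alone had been planned. Named genes were the members, HS3ST2, up to 4 called genes with the smallest p per list and the 3 nearest genes per called member; others are marked. The members and lists were chosen with earlier results of these data known. No genome build is named for the values.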

Additional observations from a re-analysis of the deposited data

How the results depend on the processing

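PLAU, PLAT, PLAUR and TFPI2 kept their direction and call under every alternative that measured them at the 0.05 threshold with no size cut. The pairs PLAT minus PLAU and TFPI minus TFPI2 did so too. PLAU and PLAT have only _s_at probe sets and were not measured without those. At that threshold with no size cut, the call of SERPINE2 was lost with the probe set of largest SD (0.42, limma adjusted p 0.0826). That of ANXA2 was lost in 5 of 6 leave-outs and with the median of its probe sets. Called members numbered 5 to 6 of 8 over left-out arrays (19.1% to 20.3% of all genes), and 4 of 6 once probe sets marked _x_at or _s_at were dropped (19.5% of all genes). That same choice left 20 of 79 list genes called, with 4 receptor partners higher and 0 lower, against 4 and 4, and 4 plasmin substrates, against 7. List genes with only such probe sets, among them FGG, VLDLR, CTSL, KLF4 and EGR1, were not measured under it. Member probe sets called numbered 7 to 9 of 22 over left-out arrays (11.5% to 12.9% of all probe sets), against 12 (16.9%). At an adjusted p under 0.01, 2840 of 19775 genes and 4643 of 54613 probe sets were called. Among the members, 5 of 8 genes (2 higher and 3 lower) and 4 of 22 probe sets were called at that threshold. With an adjusted p under 0.05 and a size of at least 0.5 required, the counts were 1157 genes (5.85%) and 3554 probe sets (6.51%). The member counts were then 1 of 8 genes (PLAT) and 3 of 22 probe sets, and 14 of the 96 list genes were called. Deviations of same-numbered HS3ST2-labelled and control arrays correlated at 0.15, 0.04 and -0.08, and those of differently numbered arrays at -0.19 to 0.18. With 3 arrays per group these values cannot show whether the replicates were paired. With a replicate block, 4302 genes (21.8%) and 14.1% of all probe sets were called, with 6 of 8 member genes and 10 of 22 member probe sets. No member gene's call changed under the block, while HMGB1, 210845_s_at and 213258_at lost theirs. Under the block, transcription factors called lower numbered 3, against 4, and activating proteases called lower 3, against 2. No call changed sign. The causes of these changes were not tested. The planned filter on dim probe sets was not run, since centring removed levels, nor the comparison of SERPINE2 with SERPINB2.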
